A study of Brachypodium distachyon with 89 samples.

Results

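GIGANTEA (GI, Bradi2g05226), FLAVIN-BINDING, KELCH REPEAT, F-BOX 1 (FKF1, Bradi4g16630) and ZEITLUPE (ZTL, Bradi1g33610) are 3 photoperiod and clock genes of the grass Brachypodium distachyon. They were picked by gene identifier from the annotated expression table, whose best Arabidopsis matches carry these names, and are 3 of the 24467 genes in that table. The table covered the ecotypes Bd21, known as sensitive to submergence, and Bd21-3, known as tolerant, as 14-day-old plants in long days of 16 h light and 8 h dark. Submerged plants (S) stood under 30 cm of water at 70 µE of light, low light plants (LL) had the same 70 µE in tanks without water, and normal growth plants (NG) were kept at 150 µE. Green tissue was collected at zeitgeber time (ZT, hours after lights on) 0, 8, 16, 20 and 24, the stress having begun late in the light period before ZT0. This gave 30 groups and 89 libraries, each a pool of 5 plants, with 3 libraries per group except 2 for Bd21 LL at ZT24. Plants collected at a given time shared a tank, so that ZT and tank cannot be told apart. In S the time under water also grew with ZT, so that time of day and length of stress cannot be told apart either. The libraries of a group were separate pools of plants, and the p-values measure the spread between such pools.

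GI is a large plant-specific protein that, in Arabidopsis, acts as a partner and stabiliser of the LOV F-box proteins. FKF1 and ZTL are blue light receptors of that family: each joins a light-sensing LOV domain to an F-box, which docks onto an SCF ubiquitin ligase, and to kelch repeats that bind the proteins to be degraded. In Arabidopsis, FKF1 with GI removes the CDF repressors of the flowering genes CO and FT in the afternoon, while ZTL, held stable by GI in the light, marks the clock proteins TOC1 and PRR5 for destruction at night. Transcripts of GI and FKF1 are known to cycle with an afternoon or evening maximum, and ZTL is regulated mainly as a protein. The data describe transcripts only.

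Libraries held 3896851 to 16044727 reads over the genes of the table, and values are CPM, read counts scaled to a common library size, in which 1 read is worth 0.0608 to 0.261 CPM. The gene for alcohol dehydrogenase, ADH1, an anaerobic enzyme used here as a check of the labels, lay at 389 to 6110 CPM in the 30 S libraries and at 0.253 to 33.4 CPM in 58 of the 59 LL and NG libraries. The other library, Bd21-3 NG at ZT8 replicate 3, had ADH1 at 389 CPM. Leaving it out left the number of calls of GI, FKF1 and ZTL as it was in each of the 7 sets of comparisons below. Its group enters only LL against NG, Bd21 against Bd21-3 and change between ZTs. The other sets share only the estimate of spread with it and could hardly have changed. Of 5 leaf markers, RBCS1A, RCA and CAB1 had matches, 9 genes in all, and PSAD1 and PSBO1 had none. Medians were 4714 to 7669 CPM for 3 RBCS1A matches and 1 RCA match, 136 CPM for 1 CAB1 match, and 0.481 to 16.4 CPM for the other 4, of which a CAB1 match was listed at 0 in 25 libraries. The 9 genes summed to 1167 to 15956 CPM in S, 15781 to 41580 in LL and 24860 to 56810 in NG. Of 5 root markers, NRT2.1, SHR and SCR had matches, NRT2.1 was listed at 0 in 30 libraries, and their sum was 1.91 to 9.06 CPM in S and 9.24 to 65.2 in LL and NG. The part of these marker shifts in the values below was not tested, and in whole green tissue fewer cells of a type and less RNA per cell cannot be told apart.

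GI had a different course over the 5 times under water, higher than in LL at dawn and at night and lower at midday. In LL and NG the gene followed a deep daily wave, high in the light and nearly off at dawn. At ZT0 its level was 5.48, 5.85 and 7.77 CPM in the 3 Bd21 LL libraries and 3.41, 4.16 and 5.32 CPM in Bd21 NG. By ZT8 it had reached 454, 500 and 507 CPM in Bd21 LL and 424, 501 and 540 CPM in Bd21 NG. Bd21-3 had the same shape, from 7.04, 7.48 and 14.1 CPM in LL at ZT0 to 376, 413 and 418 CPM at ZT8. No library at ZT0 came near any library at ZT8 in these groups.

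Under water that wave was much shallower, with its lowest mean at ZT8 and its highest at ZT20 in both ecotypes. GI stood at 111, 123 and 146 CPM in the Bd21 S libraries at ZT0, where all LL and NG libraries at ZT0 and ZT24 lay between 3.41 and 26.4 CPM. At ZT8, when GI is at its highest in controls, the same ecotype under water had 77.1, 82.2 and 94.4 CPM. In Bd21-3 S the 3 libraries had 133, 142 and 180 CPM at ZT0 and 91.9, 103 and 108 CPM at ZT8. The lowest of the 30 S libraries held 72.7 CPM and the highest 321 CPM, against 3.41 and 540 CPM over the 59 LL and NG libraries.

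GI in S was still below both controls at the end of the light period and above them in the dark. At ZT16 the means were 163 ± 46.9 CPM in Bd21 S (SD, n = 3) and 149 ± 19.7 in Bd21-3 S, beside 285 ± 58.6 and 370 ± 39.6 in LL and 264 ± 19.1 and 308 ± 42.3 in NG, with every S library below every control library of its ecotype. At ZT20 Bd21 S reached 196, 250 and 321 CPM while Bd21 LL had 24.1, 35.6 and 48.4 CPM and Bd21 NG 12.3, 14.3 and 16.3 CPM. In Bd21-3 at ZT20 the values were 159, 206 and 266 CPM in S, 65.1, 77.9 and 80.4 in LL and 36.2, 46.2 and 59.8 in NG. At the second dawn, ZT24, S again stood above both controls, with 72.7, 99.1 and 126 CPM in Bd21 and 144, 173 and 188 CPM in Bd21-3, against 5.86 and 10.6 CPM in Bd21 LL and 15.2, 23.0 and 26.4 CPM in Bd21-3 LL. The S and LL libraries of GI did not overlap at any of the 5 times in either ecotype.

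**Figure D1:**
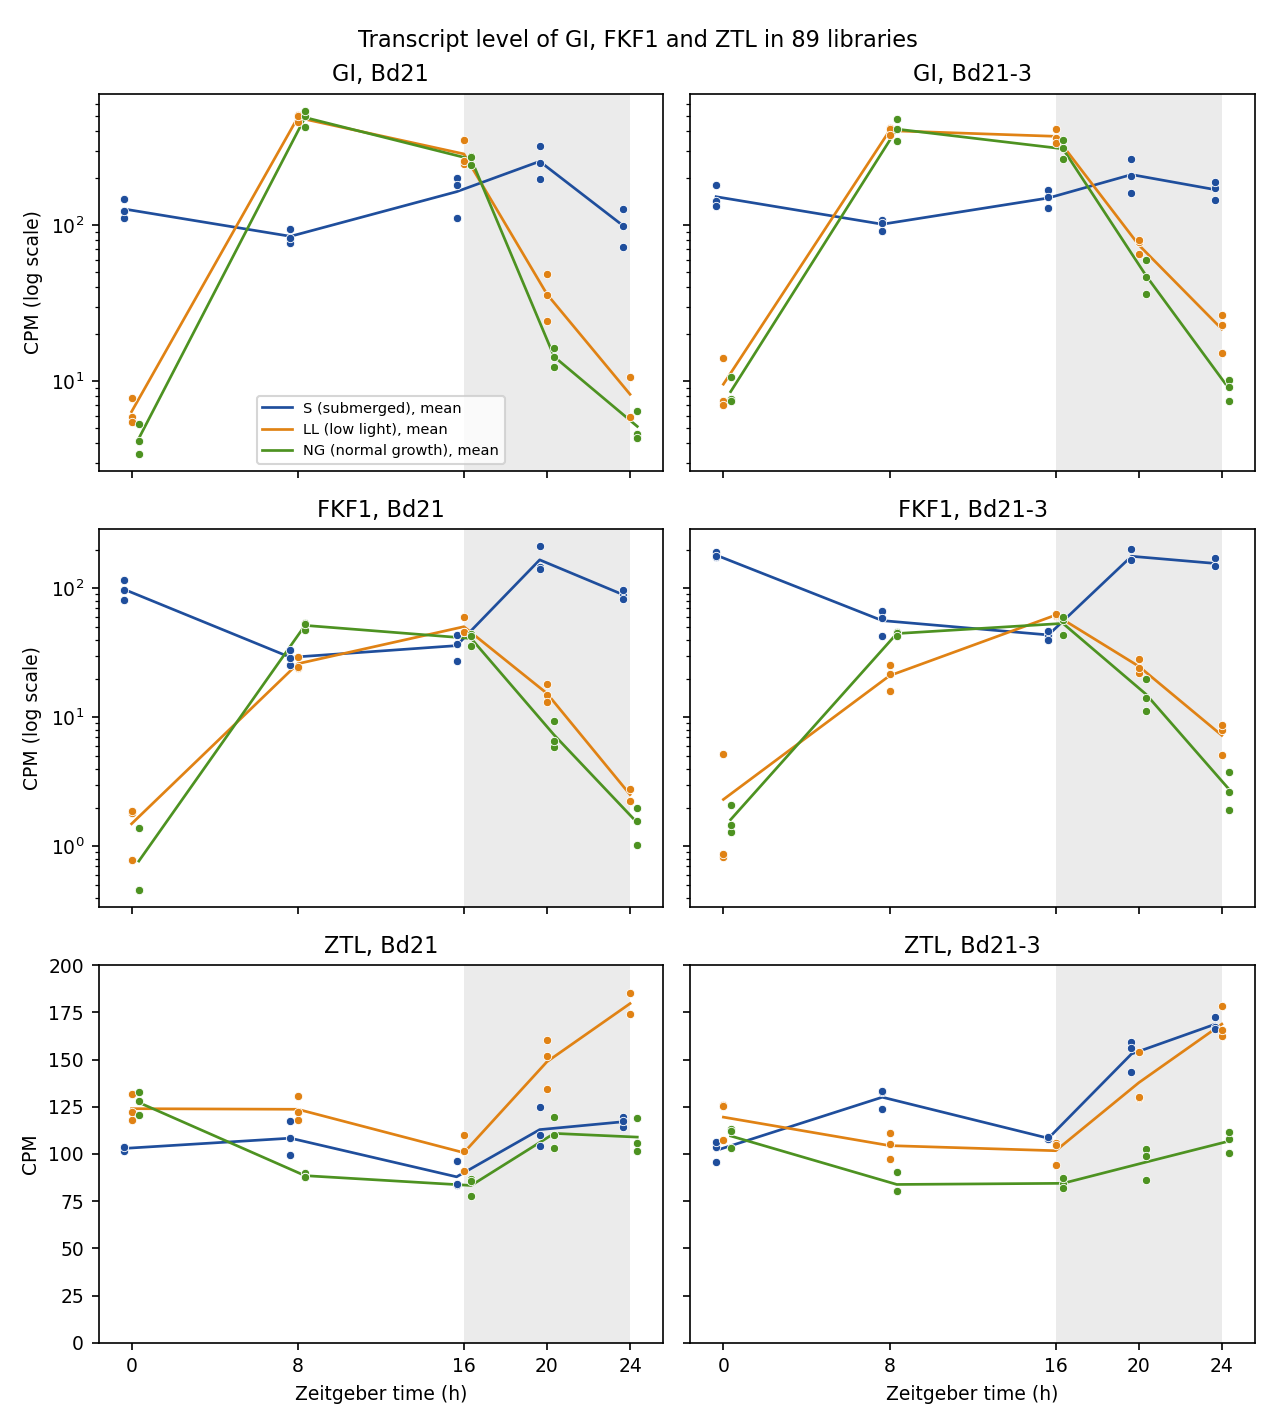
Level of GI and FKF1 (CPM, log axes) and of ZTL (CPM, linear axis from 0) by zeitgeber time in hours, with 1 point per library, lines through the group means, and the 8 h dark period shaded. GI in S stays between 72.7 and 321 CPM while LL and NG swing from 3.41 to 540 CPM, FKF1 in S exceeds every control library at ZT0, ZT20 and ZT24, and ZTL stays between 77.5 and 185 CPM throughout.

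FKF1, the blue light receptor that works with GI, was almost silent at dawn in the controls. At ZT0 it was at 0.783, 1.82 and 1.89 CPM in Bd21 LL and 0.460, 0.463 and 1.39 CPM in Bd21 NG, values that rest on as few as 3 reads in a library. Bd21-3 LL had 0.831, 0.868 and 5.24 CPM, its replicate 1 being well above the other 2, and Bd21-3 NG had values from 1.29 CPM upwards with a mean of 1.61 ± 0.425 CPM (SD, n = 3). Daytime levels in controls were moderate, with a highest library of 63.1 CPM at ZT16 in Bd21-3 LL.

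Submerged plants carried the opposite pattern, with the largest amounts of FKF1 transcript at dawn and in the night. Bd21 S had 81.2, 97.1 and 117 CPM at ZT0, and Bd21-3 S had 176, 177 and 191 CPM. At ZT20 the libraries held 143, 146 and 212 CPM in Bd21, the 2 lower ones of Bd21-3 held 165 and 167 CPM around a mean of 178 CPM, and at ZT24 the libraries held 83.2, 88.9 and 97.2 CPM in Bd21 and 148, 150 and 172 CPM in Bd21-3. The 18 S libraries of these 3 times, from 81.2 to 212 CPM, all lay above the 59 LL and NG libraries of any time, from 0.460 to 63.1 CPM.

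At ZT8 and ZT16 FKF1 differed much less. Bd21 S had 25.6, 28.7 and 33.3 CPM at ZT8, which overlapped Bd21 LL at 24.2, 24.7 and 29.3 CPM and lay below Bd21 NG at 48.0, 53.1 and 54.1 CPM. Bd21-3 S at ZT8 had 42.8, 58.9 and 67.4 CPM against 16.0, 21.8 and 25.4 in LL and 42.9, 45.5 and 45.8 in NG, and so was above LL but overlapped NG. At ZT16 the S means of 36.0 ± 8.39 and 43.6 ± 3.49 CPM were the lowest of the 3 treatments in both ecotypes, beside 50.5 ± 7.86 and 62.2 ± 0.871 in LL and 41.0 ± 4.60 and 53.6 ± 8.76 in NG (SD, n = 3).

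ZTL, the family member whose Arabidopsis protein controls the pace of the clock, was steady by comparison. All 89 libraries lay between 77.5 and 185 CPM, and the highest group mean was 2.16 times the lowest, where the same ratio was 114 for GI and 236 for FKF1. Low light plants had the highest values, 174 and 185 CPM in Bd21 and 163, 166 and 178 CPM in Bd21-3 at ZT24. Normal growth plants had the lowest, with 77.5, 85.9 and 86.5 CPM in Bd21 at ZT16 and 80.4, 80.5 and 90.6 CPM in Bd21-3 at ZT8. Under water Bd21 lay below Bd21-3 without overlap at each time after ZT0, and at ZT24 Bd21 S had 114, 117 and 119 CPM and Bd21-3 S had 166, 167 and 173 CPM.

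Group means of ZTL over the 5 times, in order from ZT0, were 103, 108, 87.9, 113 and 117 CPM in Bd21 S and 124, 124, 101, 149 and 180 CPM in Bd21 LL. Bd21 NG had 127, 88.5, 83.3, 111 and 109 CPM. In Bd21-3 they were 102, 130, 108, 153 and 169 CPM in S and 119, 104, 102, 138 and 169 CPM in LL. Bd21-3 NG had 110, 83.9, 84.4, 95.7 and 107 CPM. The SDs of these groups ran from 0.679 CPM in Bd21-3 S at ZT16 to 13.9 CPM in Bd21-3 LL at ZT20.

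To ask what submergence added to low light, S was set against LL at each ZT in each ecotype with limma on log2(CPM + 1). To be called, a gene needed a log2 fold change (log2FC) of 1.5 or more in size, an adjusted p below 5e-06, and 15 CPM or more as the mean of either group. GI rose at ZT0 and ZT24 in both ecotypes and at ZT20 in Bd21, and fell at ZT8 in both. FKF1 rose at ZT0, ZT20 and ZT24 in both ecotypes. ZTL was called in 0 of 10 comparisons. That makes 13 calls in 30 tests, 11 higher and 2 lower, and all 13 concerned GI and FKF1. Over all genes tested in Bd21, 3.38%, 2.63% and 2.6% were called higher at ZT0, ZT20 and ZT24 and 2.89% lower at ZT8. For Bd21-3 these shares were 4.24%, 3.28%, 2.84% and 5.04%.

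The rises at dawn were the largest. FKF1 differed by a log2FC of 5.33 ± 0.25 (SE) at ZT0 in Bd21 (adjusted p = 6.36e-28, limma) and 6.04 ± 0.25 in Bd21-3 (adjusted p = 5.55e-31, limma), ranks 52 and 47 from the highest among the 24109 genes tested. As a ratio of mean CPM these were 65.6-fold and 78.5-fold, with few reads in the LL libraries, and the latter was 214-fold without Bd21-3 LL ZT0 replicate 1, the library with 5.24 CPM. For GI the log2FC at ZT0 was 4.12 ± 0.23 in Bd21 (adjusted p = 1.64e-24) and 3.91 ± 0.23 in Bd21-3 (adjusted p = 8.92e-24), or 19.9-fold and 15.9-fold. At ZT24 FKF1 differed by 4.69 ± 0.28 and 4.28 ± 0.25 and GI by 3.46 ± 0.25 and 2.94 ± 0.23 in Bd21 and Bd21-3, with adjusted p of 6.92e-23, 1.41e-23, 8.23e-19 and 4.41e-18.

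Night values at ZT20 were 3.34 ± 0.25 and 2.79 ± 0.25 for FKF1 (adjusted p = 1.47e-18 and 2.05e-15, limma) and 2.82 ± 0.23 for GI in Bd21 (adjusted p = 3.37e-17, limma). GI in Bd21-3 at ZT20, with 1.46 ± 0.23 (adjusted p = 8.74e-08, limma), missed the fold limit. The midday fall of GI was −2.52 ± 0.23 in Bd21 and −1.98 ± 0.23 in Bd21-3 (adjusted p = 4.35e-15 and 1.63e-11), meaning that LL held 5.76 and 3.98 times as much. FKF1 at ZT8 had values of 0.16 ± 0.25 in Bd21 and 1.38 ± 0.25 in Bd21-3 (adjusted p = 0.628 and 2.97e-06, limma), neither called.

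At ZT16 no member was called. GI had a log2FC of −0.83 ± 0.23 and −1.31 ± 0.23 (adjusted p = 0.00142 and 1.17e-06, limma) and FKF1 of −0.49 ± 0.25 and −0.50 ± 0.25 (adjusted p = 0.0869 and 0.0838, limma). FKF1 had the higher log2FC of the pair in 10 of 10 comparisons, by 0.33 to 3.36, a description of estimates that share the same libraries, with no test of its own. ZTL ranged from −0.61 ± 0.09 in Bd21 at ZT24 (adjusted p = 7.19e-08, 95% interval −0.80 to −0.43) to 0.32 ± 0.08 in Bd21-3 at ZT8 (adjusted p = 0.000897, interval 0.15 to 0.48). With NG in place of LL the Bd21 values at ZT8, ZT16, ZT20 and ZT24 were above 0, that at ZT24 being 0.11 (adjusted p = 0.253, limma). ZTL in Bd21-3 at ZT24 was at −0.000589 against LL and at 0.65 against NG (adjusted p = 2.48e-10 against NG, limma). Of its 10 tests against LL, 7 had an unadjusted p under 0.05 with limma and 5 with edgeR, which called none either.

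When each comparison was fitted on its own 2 groups alone, only 2 of the 13 calls, GI and FKF1 at ZT0 in Bd21, passed the limit of 5e-06, and the other 11 had adjusted p between 1.95e-05 and 0.00154 with the same log2FC. GI in Bd21-3 at ZT20 and FKF1 in Bd21-3 at ZT8 lay at the fold limit and were called, at 1.54 and 1.51, in an edgeR fit on recovered reads.

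**Figure D2:**
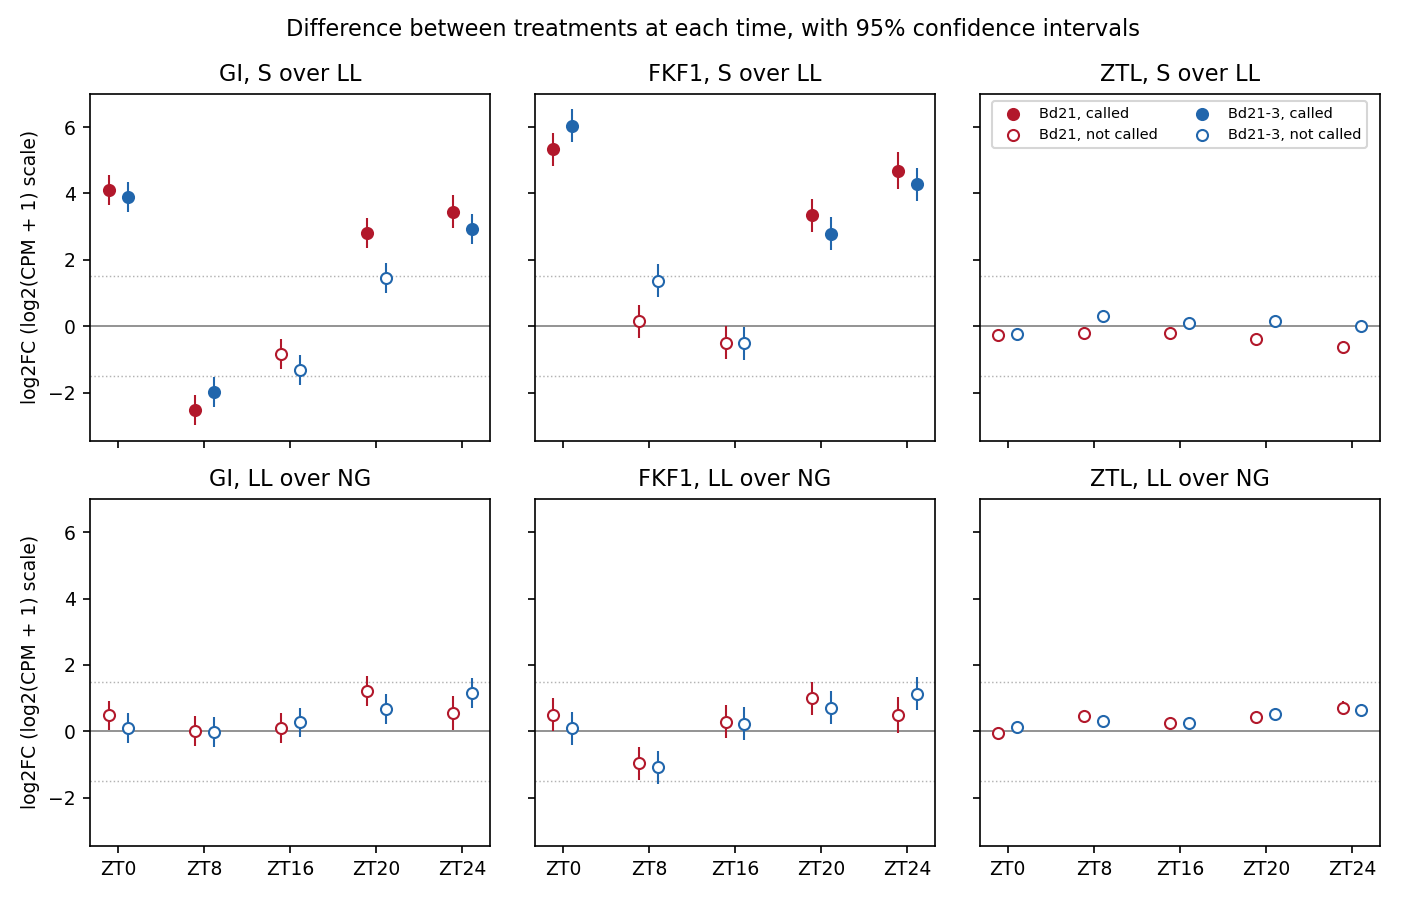
Log2FC of S over LL (top) and of LL over NG (bottom) at each ZT for GI, FKF1 and ZTL, in Bd21 (red) and Bd21-3 (blue), with 95% confidence intervals; filled points were called and dotted lines mark the fold limit of 1.5. The top row holds 13 called points, up to 6.04 for FKF1, and the bottom row none.

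LL was then set against NG. The LL plants had been moved into tanks while NG plants were left in place, so that light level and this move cannot be told apart. None of the 3 genes was called at any ZT (0 of 30 tests with limma and 0 with edgeR, 19 and 18 of them at an unadjusted p under 0.05), where 0.803% of all tests over the 10 comparisons were. At ZT0, 0 of the 24109 genes tested were called in either ecotype. Some of the 30 tests of the 3 genes could not be called, as neither group mean reached 15 CPM. They were GI at ZT0 in both ecotypes and at ZT24 in Bd21, and FKF1 at ZT0 and ZT24 in both ecotypes. GI and FKF1 leaned higher in LL at night: GI by 1.23 ± 0.23 at ZT20 in Bd21 (adjusted p = 1.73e-05, limma) and 1.16 ± 0.23 at ZT24 in Bd21-3 (adjusted p = 2.55e-05, limma). At ZT8 FKF1 leaned lower, by −0.96 ± 0.25 in Bd21 and −1.07 ± 0.25 in Bd21-3 (adjusted p = 0.00153 and 0.000542), LL holding 0.504 and 0.471 of the NG level, while GI at that time differed by 0.00 ± 0.23 and −0.02 ± 0.23. ZTL was higher in LL from ZT8 on in both ecotypes with log2FC of 0.26 to 0.72 and 8 adjusted p under 0.05, and at ZT24 LL exceeded NG 1.65-fold in Bd21 and 1.58-fold in Bd21-3 with no overlap of libraries.

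Between ecotypes, Bd21 against Bd21-3 within a treatment, the only call was GI at ZT20 under NG. GI was lower in Bd21 there, at 12.3 to 16.3 CPM against 36.2 to 59.8 CPM, a log2FC of −1.64 ± 0.23 (adjusted p = 3.97e-08, limma), where 0.17% of all genes were called lower in Bd21. The call was lost without Bd21-3 NG ZT20 replicate 3 (−1.46, adjusted p = 1.01e-05), with a pseudocount of 5 (−1.42) and in a fit of these 2 groups alone (adjusted p = 0.00372). Over the other 14 ecotype comparisons 0.746% of all tests were called and no member was. GI at ZT0 in LL and at ZT0 and ZT24 in NG did not reach 15 CPM and could not be called. The same held for FKF1 at ZT0 and ZT24 in LL and NG. Under LL, GI was lower in Bd21 by −1.08 ± 0.23 at ZT20 and −1.30 ± 0.25 at ZT24 (adjusted p = 0.000323 and 0.000107, limma). Under S, the FKF1 estimates were lower in Bd21 at all 5 times, from −0.91 ± 0.25 at ZT8 to −0.11 ± 0.25 at ZT20. From ZT0 to ZT24 the adjusted p was 0.00803, 0.00488, 0.427, 0.865 and 0.016 (limma). The FKF1 libraries at ZT0, ZT8 and ZT24 did not overlap between ecotypes, and the ZT20 estimate was 0.02 with quantile normalization. For ZTL under S the difference was 0.02 ± 0.08 at ZT0, then −0.26, −0.30, −0.44 and −0.52 at ZT8, ZT16, ZT20 and ZT24, each ± 0.08 (adjusted p = 0.956, 0.0151, 0.00351, 4.06e-05 and 9.97e-07, limma).

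Whether the response to submergence differed between ecotypes was tested as the S over LL log2FC of Bd21-3 minus that of Bd21. None of 15 such tests was called with limma or edgeR, and 7 and 6 had an unadjusted p under 0.05, where 0.163% of all tests were called. The GI response at ZT20 was smaller in Bd21-3 by −1.36 ± 0.32 (adjusted p = 0.00494, limma), and the FKF1 response at ZT8 larger by 1.22 ± 0.35 (adjusted p = 0.0158, limma). GI in Bd21 over Bd21-3 at ZT20 was 0.28 in S (adjusted p = 0.495, limma) and −1.08 in LL. ZTL, whose difference between S and LL was below 0 in Bd21 at each ZT, had a higher one in Bd21-3 by 0.51 ± 0.12 at ZT8, 0.55 ± 0.12 at ZT20 and 0.61 ± 0.12 at ZT24 (adjusted p = 0.00195, 0.00168 and 0.00117, limma). At ZT0 the FKF1 responses differed by 0.71 ± 0.35 (adjusted p = 0.372, limma), and by 1.29 (adjusted p = 0.00857) without Bd21-3 LL ZT0 replicate 1, the library with 5.24 CPM. For ZTL at ZT16 the difference was 0.28 ± 0.12 (adjusted p = 0.108, limma), and the adjusted p was 0.0481 without Bd21 LL ZT16 replicate 1 and 0.0446 without Bd21 S ZT16 replicate 2. At ZT0 the 95% interval was −0.85 to 0.43 for GI and −0.19 to 0.27 for ZTL.

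Change between ZTs was asked with an F test across the 5 ZTs in each ecotype and treatment, called with a range of at least 1.5 between group means on the log2 scale. In S such a change does not separate time of day from time under water. FKF1 was called in 6 of 6 and GI in 5 of 6, while ZTL was called in 0 of 6 with limma and edgeR. All 6 ZTL tests had an unadjusted p under 0.05. Their adjusted p ran from 1.89e-12 in Bd21-3 S to 0.000114 in Bd21 S (limma), and all ZTL ranges were under the limit of 1.5. The share of all genes called was 11.2% in S, 2.41% in LL and 1.72% in NG for Bd21, and 10.1%, 2.52% and 1.85% for Bd21-3. GI ranged over 6.06 and 6.54 in Bd21 LL and NG and over 5.32 and 5.44 in Bd21-3, but over 1.56 in Bd21 S (adjusted p = 4.5e-08, limma) and 1.02 in Bd21-3 S (adjusted p = 0.00156, limma), the latter not called. The Bd21 S call rested on values at the limit: the range fell just short of the limit without Bd21 S ZT8 replicate 1 and was 1.38 without Bd21 S ZT20 replicate 3 and 1.46 after median of ratios scaling, and none of these was called. FKF1 ranged over 2.46 and 2.03 in S and over 4.38 to 4.94 in LL and NG, and ZTL over 0.38 to 0.83.

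As a ratio of the highest to the lowest mean over the ZTs, GI varied 3.02-fold in Bd21 S and 2.08-fold in Bd21-3 S, against 76.5-fold and 42.1-fold in LL and 114-fold and 48.1-fold in NG. Its highest mean was at ZT8 in LL and NG, apart from ZT16 in Bd21 but overlapping it in Bd21-3, and at ZT20 in S, where the next highest time overlapped in both ecotypes. Its lowest was at ZT0 in LL and NG and at ZT8 in S. FKF1 varied 5.70-fold and 4.16-fold in S against 26.9-fold to 67.2-fold in the controls. Its highest mean in S was at ZT20 in Bd21, apart from ZT0 as the second, and at ZT0 in Bd21-3, where it overlapped ZT20. In LL FKF1 was highest at ZT16 in both ecotypes, and in NG at ZT8 in Bd21 and at ZT16 in Bd21-3, where it overlapped ZT8. ZTL was highest at ZT24 in S and LL and at ZT0 in NG, and varied 1.31-fold to 1.78-fold.

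Whether the S over LL difference itself changed between ZTs was tested with a further F test per ecotype. GI and FKF1 were called in both ecotypes and ZTL in neither, so that 4 of 6 tests passed, where 9.22% of all genes passed in Bd21 and 9% in Bd21-3. The log2FC ranged over 6.63 and 5.89 for GI in Bd21 and Bd21-3 and over 5.82 and 6.54 for FKF1, with the highest adjusted p of the 4 at 2.68e-24 (limma). For ZTL the range was 0.42 and 0.54 (adjusted p = 0.0128 and 0.00146, limma; both tests had an unadjusted p under 0.05 and edgeR called neither).

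The 2 dawns, ZT24 and ZT0, were compared within each ecotype and treatment. No member was called in 18 tests with limma or edgeR, 9 and 8 of which had an unadjusted p under 0.05, where 2.6% of all tests over the 6 comparisons were called. GI in Bd21 LL and in NG of both ecotypes did not reach 15 CPM at either dawn and could not be called. The same held for FKF1 in LL and NG of both ecotypes. In S the log2FC of ZT24 over ZT0 was −0.37 ± 0.23 and 0.16 ± 0.23 for GI and −0.12 ± 0.25 and −0.21 ± 0.25 for FKF1, in Bd21 and Bd21-3. ZTL differed by 0.72 ± 0.08 in Bd21-3 S (adjusted p = 2.01e-11, limma) and 0.18 ± 0.08 in Bd21 S (adjusted p = 0.0546, limma), and in LL by 0.53 ± 0.09 in Bd21 and 0.50 ± 0.08 in Bd21-3 (adjusted p = 1.66e-05 and 2.68e-06, limma). FKF1 in Bd21-3 LL differed by 1.55 ± 0.25 (adjusted p = 1.39e-06, limma) but its higher mean, 7.26 CPM, was under the level limit.

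Ranked over the 30 groups, GI fell into daytime controls, then S groups, then night and dawn controls. Its 8 highest group means, 264 to 488 CPM, were those of LL and NG at ZT8 and ZT16, the next 10, 84.6 to 256 CPM, were those of S, and the last 12, 4.30 to 74.5 CPM, were those of LL and NG at ZT20, ZT24 and ZT0. Neighbours in this order had library ranges that did not overlap in 2 of 29 pairs, Bd21 S ZT0 above Bd21-3 S ZT8 and Bd21-3 LL ZT20 above Bd21-3 NG ZT20. In the other 27 pairs the ranges overlapped, and a difference between neighbours was not tested. In FKF1 the 6 highest means, 89.7 to 181 CPM, were S at ZT0, ZT20 and ZT24. Then came 15 groups from 15.1 to 62.2 CPM, each overlapping the next in rank, which held 3 of the 4 control groups at ZT20. The lowest in FKF1 were Bd21 NG at ZT20 and the controls at ZT0 and ZT24, from 0.770 to 7.30 CPM. The FKF1 order had 4 gaps among 29 pairs, below Bd21-3 S ZT24, Bd21 S ZT24, Bd21-3 NG ZT20 and Bd21-3 LL ZT24. For ZTL only 1 of 29 neighbours was apart, Bd21-3 S ZT24 at 169 CPM above Bd21-3 S ZT20 at 153 CPM.

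Groups with high GI mostly had high FKF1. Pearson's r of their 30 group means of log2(CPM + 1) was 0.86 over all groups, 0.98 over the 10 NG groups, 0.91 over the 10 LL groups and 0.61 over the 10 S groups, and the difference between these was not tested. For ZTL r was −0.40 with GI and −0.18 with FKF1 over the 30 groups. The points share ecotypes, tanks and libraries, and r is given as a description.

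**Figure D3:**
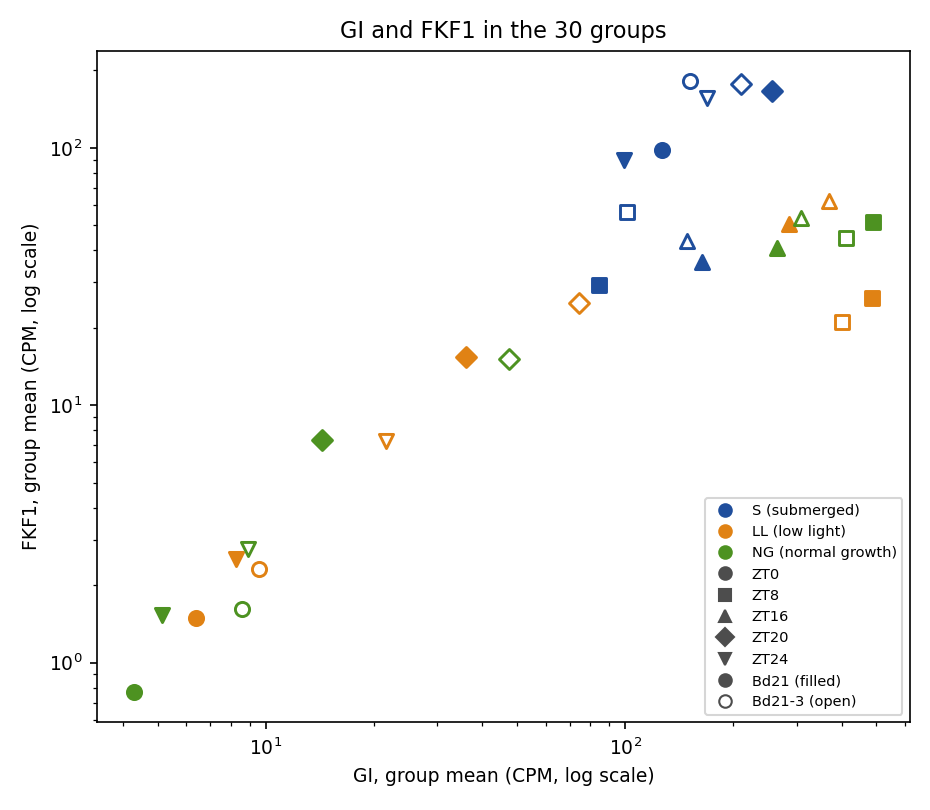
Group mean of FKF1 against that of GI in the 30 groups (CPM, log axes), coloured by treatment, with 1 marker shape per ZT and open markers for Bd21-3. Controls run from dawn at the lower left, GI 4.30 and FKF1 0.770 CPM in Bd21 NG at ZT0, to GI at 488 CPM, while all 10 S groups lie between 84.6 and 256 CPM of GI and 6 of them above every control in FKF1.

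Among the 14850 other genes with at least 15 CPM in some group, those most like each member over the 30 group means were as follows. For GI they were Bradi1g59850, whose Arabidopsis match AT2G39950 carries no description in the table (r = 0.96), Bradi1g65910, matched to the clock repressor PRR7 (r = 0.93), and Bradi1g67127, a DUF962 protein (r = 0.93). The PRR7 match had a mean of 165 ± 5.81 CPM at ZT8 in Bd21 LL and 22.6 ± 1.66 in Bd21 S, and 27.3 ± 1.68 CPM in Bd21 S at ZT0 against 4.73 ± 0.956 in LL. For FKF1 they were Bradi3g27700, a RING/U-box protein (r = 0.93), Bradi5g25730, matched to polyamine oxidase PAO4 (r = 0.90), and Bradi1g67120, matched to MEE59 (r = 0.90). Bradi3g27700 held 205 ± 46.3 CPM in Bd21 S at ZT0 and 1.33 ± 1.20 in Bd21 LL. For ZTL they were the importin alpha match Bradi2g35050 (r = 0.94), the POB1 match Bradi3g09770 (r = 0.94) and the zinc finger protein Bradi5g25100 (r = 0.93).

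The surrounding pathway was taken as a list of 39 Arabidopsis genes, of which 26 were the best match of at least 1 gene here, giving 43 genes beside the 3 members. All 43 passed the low value filter, and 18 of them were called in at least 1 of the 10 S over LL comparisons, where 20% of all genes tested were. The calls changed with the time of day. In Bd21, 3 of the 43 were called higher and 7 lower at ZT0 (all genes 3.38% higher and 3.02% lower), and 3 and 3 at ZT8 (3.65% and 2.89%). Later counts there were 8 and 3 at ZT16 (3.86% and 3.93%), 6 and 1 at ZT20 (2.63% and 4.39%) and 2 and 2 at ZT24 (2.6% and 4.16%). In Bd21-3 the counts were 4 and 5 at ZT0 (4.24% and 4.32%) and 4 and 5 at ZT8 (3.21% and 5.04%). They were then 7 and 0 at ZT16 (3.73% and 4.67%), 7 and 0 at ZT20 (3.28% and 5.54%) and 5 and 1 at ZT24 (2.84% and 4.71%). The median log2FC of the 43 ran from −0.19 at ZT0 in Bd21-3 to 0.27 at ZT20 in Bd21-3, beside −0.12 and −0.01 over all genes.

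Of the 9 genes matched to regulators of GI and FKF1 transcription, 6 were called in at least 1 comparison, where 20% of all genes tested were. LHY (Bradi3g16515), a morning repressor of evening genes, had 3418 ± 303 CPM at ZT0 in Bd21 LL and 47.4 ± 16.1 in S, and fell by log2FC of −6.20 ± 0.19 (adjusted p = 2.00e-37, limma) in Bd21 and −5.22 ± 0.19 in Bd21-3. LHY also fell at ZT24, by −3.72 and −3.06, and rose at ZT16, by 4.40 and 2.59, where GI was not called. LNK1 (Bradi1g60846) and LNK2 (Bradi2g13610), light-induced coactivators in Arabidopsis, rose at ZT20 by 3.69 and 3.39 in Bd21 and by 3.48 and 3.23 in Bd21-3. Both also rose at ZT16 in each ecotype, and at ZT8 LNK2 fell by −2.07 in Bd21 and −2.24 in Bd21-3. LNK1 was called higher in 5 comparisons and lower in 2, with a lowest log2FC of −1.90. RVE8 (Bradi2g00423), in Arabidopsis an activator of evening genes, was called higher at ZT0 in both, with 18.7 ± 7.42 CPM in Bd21 S while listed at 0 in the 3 LL libraries, and with 24.0 ± 7.23 CPM in Bd21-3 S against 0.0396 ± 0.0685 in LL.

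Among the 10 genes matched to proteins that the F-box proteins mark for degradation, 7 were called, in both directions. Of all genes tested, 20% were called in at least 1 comparison. TOC1 (Bradi3g48880), the target of ZTL, was not called at any ZT and had log2FC between −1.44 ± 0.12 at ZT16 and 1.42 ± 0.14 at ZT24, both in Bd21. The first PRR5 match, Bradi4g24967, rose in 7 of 10 comparisons, by up to 3.35 ± 0.15 at ZT0 in Bd21-3, where S held 226 ± 30.4 CPM. The second, Bradi4g36077, fell at ZT8, by −3.13 in Bd21 and −3.43 in Bd21-3, as GI did, and rose at ZT16 and ZT20 in Bd21. CDF genes encode the repressors that FKF1 removes as proteins in Arabidopsis, while the values here are transcript levels. Of 7 CDF matches, 4 fell at ZT0 in Bd21 and 3 in Bd21-3, where 3.02% and 4.32% of all genes were called lower. Examples were CDF2 Bradi1g73710, from 52.0 ± 7.24 CPM to 2.56 ± 0.822 in Bd21, and CDF1 Bradi3g25670, from 15.8 ± 2.58 to 0.754 ± 0.127 in Bd21-3. At ZT16 and ZT20 CDF2 Bradi2g09720 rose in both ecotypes, by 2.43 and 2.35 in Bd21-3, and CDF3 Bradi1g17410 rose at both times in Bd21-3 and at ZT16 in Bd21. CDF3 Bradi2g10640 fell at ZT20 and ZT24 in Bd21. The CDF1 match Bradi2g50370 and the CDF4 match Bradi2g19930 had no group mean above 2.79 CPM and so could not be called.

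In the chaperone and deubiquitinase list, where HSP90 helps ZTL fold and UBP12 and UBP13 counter degradation in Arabidopsis, 2 of 9 genes were called. For this list and the SCF core below, the share of all genes called in at least 1 comparison was 20%. HSP90.1 (Bradi5g02037) rose in 10 of 10 comparisons, by 5.74 to 7.41, with 533 ± 243 CPM in Bd21 S at ZT8 against 2.11 ± 1.34 in LL. HSP90.4 (Bradi3g39630) rose at ZT8, by 2.25 and 1.64, but NG lay above LL there, at 252 ± 16.1 against 74.8 ± 15.6 CPM in Bd21. Of the 7 genes of the SCF core, only CUL1 Bradi2g60057, a match to the cullin scaffold, was called, rising in Bd21-3 at ZT0, ZT8, ZT20 and ZT24 by 1.88 to 2.00. Both further LOV F-box genes were uncalled: the second ZTL match, Bradi3g04040, had log2FC of −0.72 to 0.14, and the LKP2 match, Bradi3g04026, did not pass 1.25 CPM in a group of these comparisons. The handling of reads that fit both ZTL matches is not given in the sources used here.

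Of 6 genes matched to photoperiod outputs 2 were called in at least 1 comparison, where 20% of all genes tested were. The FT match Bradi4g35040 fell at ZT16 in Bd21, from 36.1 ± 31.1 CPM in LL to 2.38 ± 1.18 in S (log2FC −3.22 ± 0.43, adjusted p = 2.56e-09, limma), with NG at 4.96 ± 2.11. Its LL mean was 18.2 CPM without Bd21 LL ZT16 replicate 3, the library with 71.9 CPM, and the fit was not repeated without it. The COL2 match Bradi1g43670 fell at the same time and in the same ecotype, by −2.44 ± 0.20, whereas the Bd21-3 means at ZT16 were close, 27.7 ± 4.46 CPM under water and 27.3 ± 0.671 CPM in LL.

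**Figure D4:**
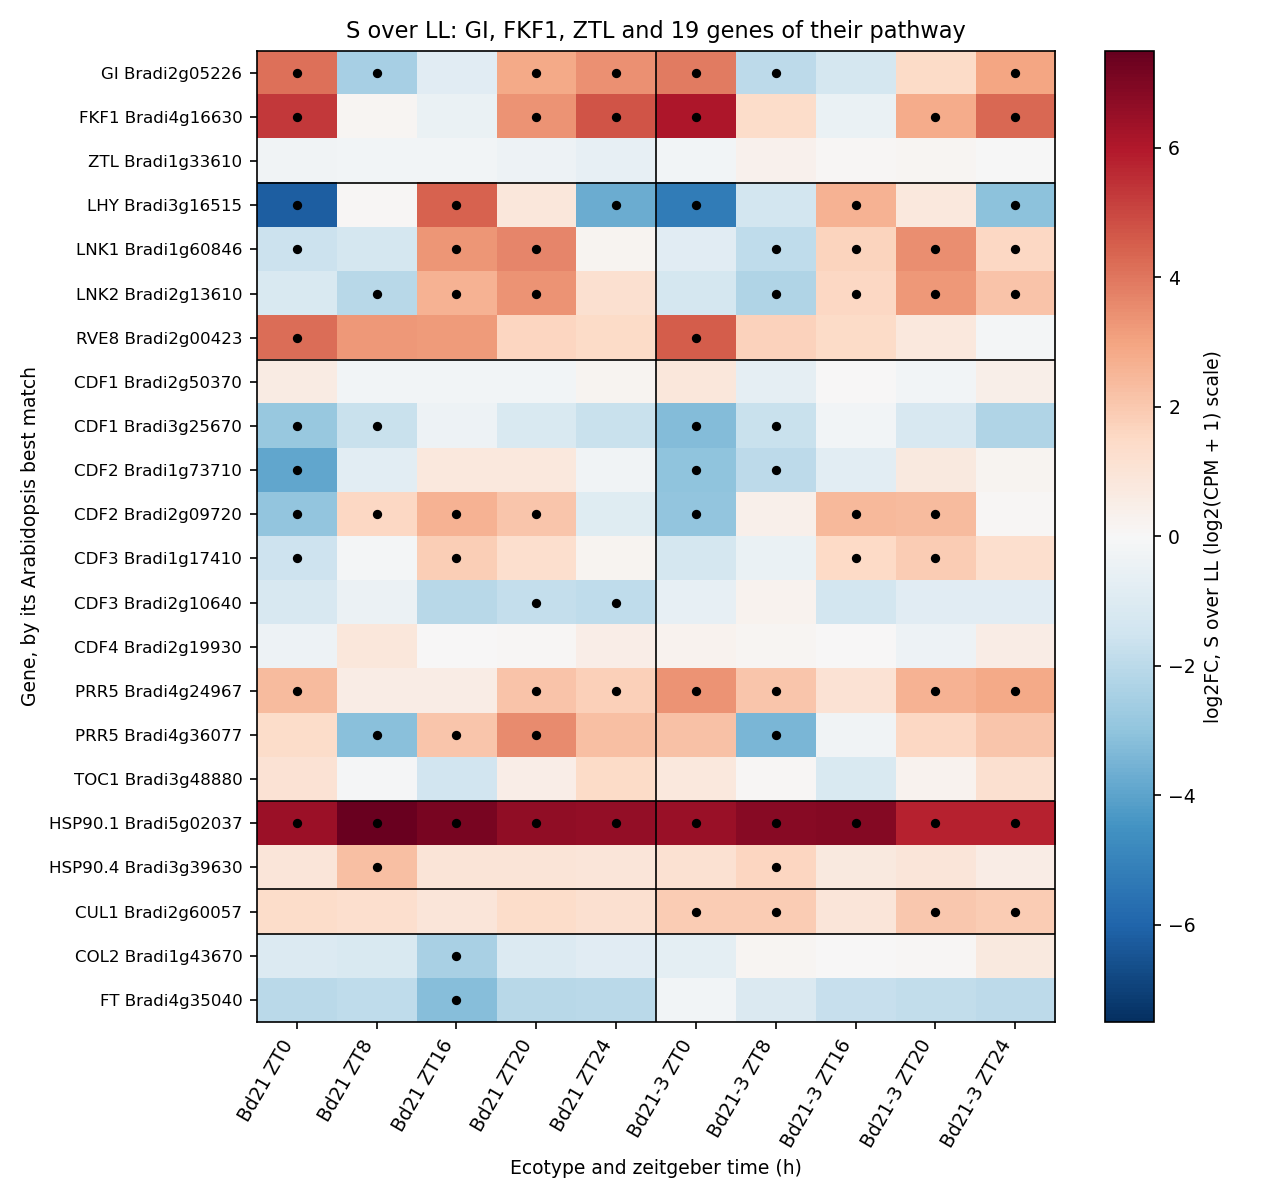
Log2FC of S over LL (colour) in the 10 comparisons for GI, FKF1, ZTL and the 19 named genes of the pathway list, grouped by role with lines between the groups; a dot marks a call. GI and FKF1 are red at ZT0, ZT20 and ZT24, LHY is blue at ZT0 and ZT24, and HSP90.1 is called in all 10 columns.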

How the data were processed

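Total RNA of green tissue was sequenced from unstranded libraries. According to the labels and methods, the authors aligned reads of both ecotypes to the Bd21 genome (v3.0) with HISAT2 2.1.0 and SAMtools 1.12, counted them with HTSeq and scaled them with edgeR. The deposited signal is CPM, and its columns sum to 843958 to 1243716, as CPM of an effective library size would. The planned test was kept. Whole reads were recovered for 100% of values within 0.001 reads. The authors discarded libraries with a low share of aligned reads. Columns of the authors' group means and of their own fold changes and FDR were not used.

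Genes with at least 1 CPM in 3 libraries (24109) were tested with limma 3.58.1 (trend) on log2(CPM + 1) with 1 term for each of 30 groups and Benjamini-Hochberg adjustment over all genes, and the limits on calls followed the study. Fold changes on this scale are too small for low genes. Intervals are 95% and read counts cover counting error only. Replicates differed beyond sampling noise in all 88 pairs (chi-square of at least 3.47 per degree of freedom). The fit was tested on simulated data.

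Alternatives were the pseudocount, the filter, the scaling, each library left out, only the groups compared, a replicate block, adjusted p under 0.05, NG as control and, added after seeing the data, edgeR 4.0.16 on the recovered reads, which called 1534 to 2173 genes per S over LL comparison against 1545 to 2126. Means of FKF1 at ZT0 and of FT at ZT16 without an LL library were likewise added after seeing the data. The members and lists were chosen with earlier results of these data known. Named pathway genes were the TOC1, PRR5 and CDF matches and, per role, up to 4 others called at least once with the largest mean absolute log2FC. Library numbers paired no samples. No sequence or coordinate was used.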

Additional observations from a re-analysis of the deposited data

Results flagged for a closer look

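The response to submergence differed between ecotypes at an adjusted p under 0.05 (limma) in 5 of 15 tests, none past the fold limit. As the S over LL log2FC of Bd21-3 minus Bd21, the difference was −1.36 ± 0.32 for GI at ZT20 (adjusted p = 0.00494), where the log2FC was 2.82 in Bd21 and 1.46 in Bd21-3. Set directly against Bd21-3 at ZT20, GI in Bd21 differed by 0.28 in S (adjusted p = 0.495, limma) and by −1.08 in LL (adjusted p = 0.000323, limma). For FKF1 at ZT8 the difference in response was 1.22 ± 0.35 (adjusted p = 0.0158), with 0.16 in Bd21 and 1.38 in Bd21-3. The FKF1 difference was 1.04 (adjusted p = 0.0687, limma) without Bd21-3 LL ZT8 replicate 3 and 1.08 (adjusted p = 0.0575, limma) without Bd21-3 S ZT8 replicate 2. For ZTL it was 0.51 ± 0.12 at ZT8, 0.55 ± 0.12 at ZT20 and 0.61 ± 0.12 at ZT24 (adjusted p = 0.00195, 0.00168 and 0.00117). At ZT8 the log2FC of ZTL was −0.19 in Bd21 and 0.32 in Bd21-3 (adjusted p = 0.0482 and 0.000897, limma). At ZT20 it was −0.40 and 0.15 (adjusted p = 4.37e-05 and 0.107, limma). With NG as the control the Bd21 values were 0.29 at ZT8 and 0.02 at ZT20. With quantile normalization the Bd21-3 value at ZT20 was −0.16.

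The S over LL log2FC also differed between ZTs in both ecotypes for each gene. It ranged over 6.63 in Bd21 and 5.89 in Bd21-3 for GI, over 5.82 and 6.54 for FKF1 and over 0.42 and 0.54 for ZTL (adjusted p = 0.0128 and 0.00146 for ZTL, F test in limma). With 2 or 3 libraries per group, no group was large enough to test for a library far from the others.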

How the results depend on the processing

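The 13 calls of GI and FKF1 for S over LL became 2 when each comparison was fitted on only its own groups, and were 13 to 15 under the other settings and 13 to 14 with each library left out. The call between ecotypes went from 1 to 0 with a pseudocount of 5 and on only the groups compared, and was 0 to 1 with a library left out. Calls for change between ZTs were 9 to 11 over the settings and 10 to 11 with a library left out. LL over NG, the ecotype difference in the response and ZT24 over ZT0 stayed at 0 calls and the response changing between ZTs at 4. No called value turned its sign. Of values that were not called, 38 turned theirs with a library left out and 20 under other settings, 10 of these with quantile normalization and 6 with NG as the control. Among these 6 were ZTL at ZT24 in Bd21 (−0.61 against LL, 0.11 against NG) and in Bd21-3 (−0.000589 against LL, 0.65 against NG). The replicate block gave 13, 0, 1, 0, 11, 4 and 0 calls in the order of the report, the same as without it. Same-numbered S and LL libraries had deviations correlated by −0.80 to 0.57, and 8 of 29 pairs passed 0.1. Scaling by median of ratios moved the median of all genes by at most 0.06. FKF1 at dawn in LL and NG rests on 3 to 93 reads per library, so its fold changes there are less precise than its level in S.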
